A study of Mus musculus with 15 samples.

Results

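The 2-oxoglutarate dependent dioxygenases are enzymes that use oxygen, iron and 2-oxoglutarate to oxidise DNA, RNA or proteins. A list of 40 such genes was taken from the deposited count table by gene ID and symbol, out of 39827 genes read, and all 40 were found and passed the filter on low counts. The list holds 3 TET DNA dioxygenases, 16 Jumonji (JmjC) histone demethylases, 4 other JmjC hydroxylases, 4 hydroxylases of hypoxia-inducible factor (HIF), 6 nucleic acid demethylases of the Alkbh and Fto type and 7 hydroxylases of collagen and other proteins. They were measured by RNA-seq in 15 libraries of mouse spleen leukemic T cells, 3 in each of 5 groups. Bone marrow progenitors (GFP+Lineage-cKit+Sca1+) of Bcat1 wild-type (WT) or Bcat1 knock-out (KO) mice had received deltaE-NOTCH1, an active form of NOTCH1 delivered by retrovirus, and had been given to lethally irradiated C57BL/6J hosts. All groups therefore carry the NOTCH1 transgene and grew in C57BL/6J hosts, whose own spleen cells can contribute RNA. The groups are the wild-type leukemia WT0 with the vehicle PBS, WT0 with the BCAT1 inhibitor ERG-245 (injected intraperitoneally at 30 mg per kg, 3 doses spaced by 8 h), the wild-type leukemia WT6, and the knock-out leukemias KO7 and KO3. WT6, KO7 and KO3 mice are labelled as PBS-treated too. The file header names DMSO in the 3 WT0 vehicle libraries where the labels say PBS. The age of the animals is not stated in the sources used here, nor is whether each library is a mouse of its own. The p-values set differences between groups only against the spread of libraries within groups, which may be technical.

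BCAT1, the cytosolic branched-chain aminotransferase, uses 2-oxoglutarate as the acceptor when it removes amino groups from the branched-chain amino acids. The dioxygenases split 2-oxoglutarate into succinate and carbon dioxide with each turn of their reaction, and succinate, fumarate and 2-hydroxyglutarate compete with it at the active site. In T cell leukemia several of them are known as regulators of chromatin, such as TET2 and KDM6A, which are mutated in blood cancers. Transcript levels say nothing of the activity of these enzymes, which was not measured.

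Total counts were 17441292 to 28902573 per library. Libraries of a group correlated across genes at r of 0.993 to 0.996 and those of different groups at 0.94 to 0.965, and genes are not independent replicates. The knock-out was visible in Bcat1 itself. Bcat1 stood at 18.4, 16.7 and 18.3 CPM (read counts relative to the library's TMM-adjusted total) in WT0 on PBS, 14.0, 13.5 and 12.5 in WT0 on ERG-245, 34.8, 35.3 and 35.6 in WT6, 6.85, 6.17 and 7.85 in KO3 and 2.11, 2.67 and 1.48 in KO7. Every knock-out library lay below every wild-type library. T cell receptor beta V segments, which mark a T cell clone, were led by a different segment in each group. Trbv17 held 39.7% of these counts in WT0 with PBS but 0.93% with ERG-245, where Trbv16 held 49.9%. Trbv19 led with 54.4% in WT6, Trbv5 with 79.1% in KO7 and Trbv15 with 85.6% in KO3. The effects of inhibitor, genotype and leukemic clone therefore cannot be told apart in any comparison below. The 12 T cell markers were detected in every group, with summed levels of 3335 to 5633 CPM, and markers of other spleen cells were present as well, as given further on. In such bulk samples, fewer cells of a type and less RNA per cell cannot be told apart.

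Levels between genes were compared per kilobase of exon (RPKM, CPM divided by the deposited gene length). Over all libraries the highest members were Phf2 at 30.4 RPKM, Egln3 at 28.4, Egln2 at 23.7, Alkbh1 at 22.7 and Kdm4a at 20.9. The lowest were Tet1 at 0.927 RPKM, P4ha2 at 1.52, Kdm5b at 1.59, Tet2 at 1.64 and Asph at 1.74. Members thus lay between the 24.0th percentile (Tet1) and the 83.8th percentile (Phf2) of all tested genes.

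Groups were compared with edgeR's quasi-likelihood test in 1 fit to all 15 libraries, over 15948 genes, and a gene was said to pass when its p, adjusted by Benjamini-Hochberg, was under 0.05. Comparisons that name the same group share its libraries and are not independent of each other. Most genes passed in every comparison, so the number of members that passed is read beside the share of all tested genes that did.
With ERG-245 against PBS, 26 of 40 members (65.0%) passed, 7 higher and 19 lower, against 65.8% of all tested genes, of which 33.0% were higher and 32.8% lower. In KO7 against WT6, 30 members (75.0%) passed, 10 higher and 20 lower, against 68.9% of all genes (32.2% higher, 36.7% lower). In KO3 against WT6, 23 members (57.5%) passed, 10 higher and 13 lower, against 59.7% of all genes (27.7% higher, 32.0% lower). The members passed about as often as other genes. More of them were lower than higher in each of these comparisons. The same held for all tested genes in KO7 and in KO3 against WT6, while with ERG-245 all genes were split nearly evenly.
Against WT0 with PBS, 33 members (82.5%) passed in KO7, 10 higher and 23 lower, beside 69.4% of all genes (34.5% higher, 34.9% lower). In KO3 26 members (65.0%) passed, 10 higher and 16 lower, beside 66.6% of all genes (34.1% higher, 32.4% lower). In the wild-type leukemia WT6 30 members (75.0%) passed, 13 higher and 17 lower, beside 72.5% of all genes (36.8% higher, 35.6% lower). Between the knock-out leukemias, 31 members (77.5%) passed in KO3 against KO7, 17 higher and 14 lower, beside 70.7% of all genes (36.1% higher, 34.6% lower). Between leukemias of the same genotype 30 and 31 members passed, and between genotypes 23 to 33.

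The differences were mostly small. With ERG-245, 0 of 40 members differed 2-fold in edgeR and 0 in DESeq2, while 27 members had an unadjusted edgeR p under 0.05, as did 68.1% of all tested genes. Their log2 differences ran from -0.53 to 0.55, and 11.7% of all genes passed with a 2-fold difference. In KO3 against WT0 with PBS 0 members differed 2-fold as well (0 in DESeq2, 28 with an unadjusted edgeR p under 0.05, beside 68.8% of all genes), with a range of -0.99 to 0.86, against 12.3% of all genes. A 2-fold difference was met by 2 members in KO7 against WT6 (17.5% of all genes), by 1 in KO3 against WT6 (11.5%), by 2 in KO7 against WT0 (16.2%), by 2 in WT6 against WT0 (18.9%) and by 4 in KO3 against KO7 (19.6%). These were Tet1, Asph, Plod1, Plod2 and Egln3. The median log2 span between the highest and the lowest group mean was 0.44 for the members and 0.66 for the 13733 tested genes of at least 1 CPM, and 7 of 40 members (17.5%) spanned at least 1 log2 unit, against 30.0% of those genes.

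**Figure D1:**
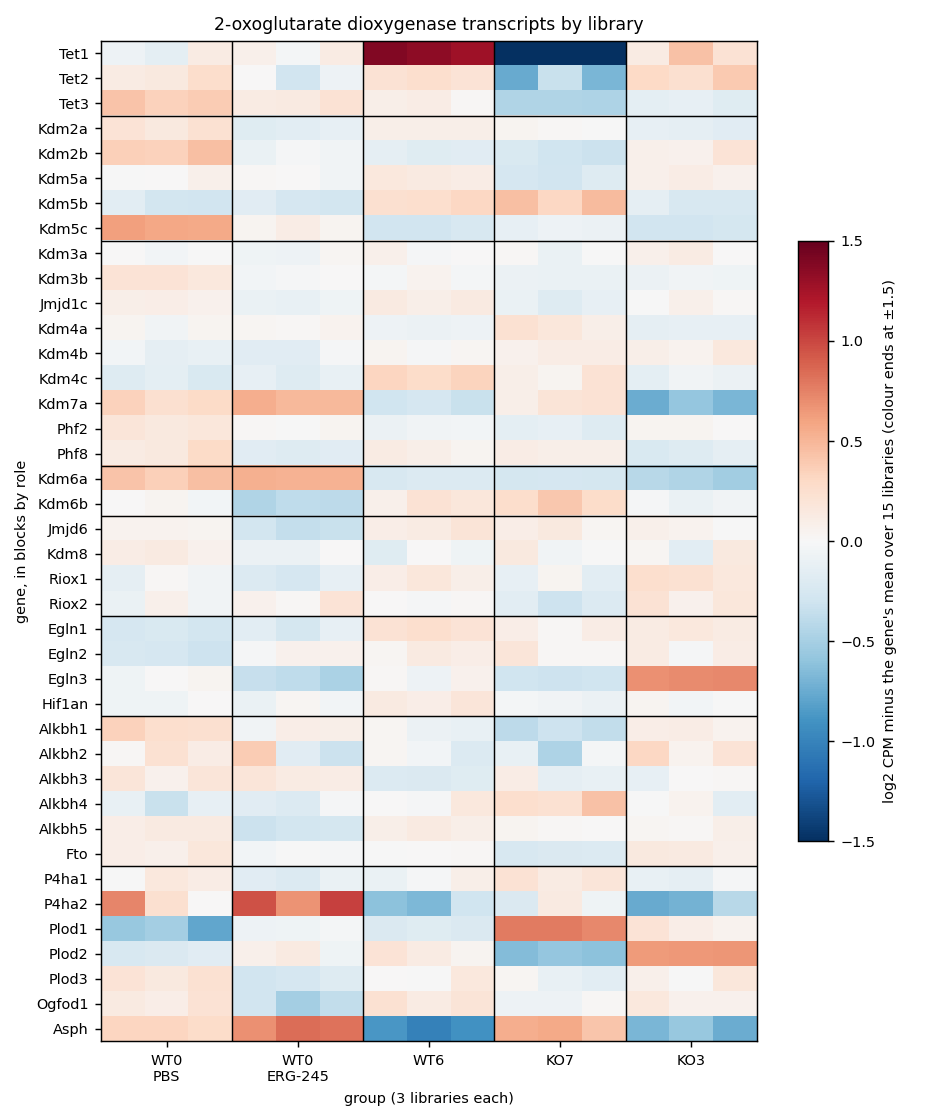
Each row is 1 of the 40 genes, in blocks by role from the TET genes at the top to collagen and other protein hydroxylases at the bottom, and each column 1 of the 15 libraries. Colour is log2 CPM minus the gene's mean over all libraries, with the scale ending at ±1.5, which Tet1 passes in KO7. The 3 libraries of a group look alike, and most genes stay near 0, with Tet1, Plod1, Plod2, Egln3, Asph, P4ha2 and Kdm7a as the strongest colours.

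**Figure D2:**
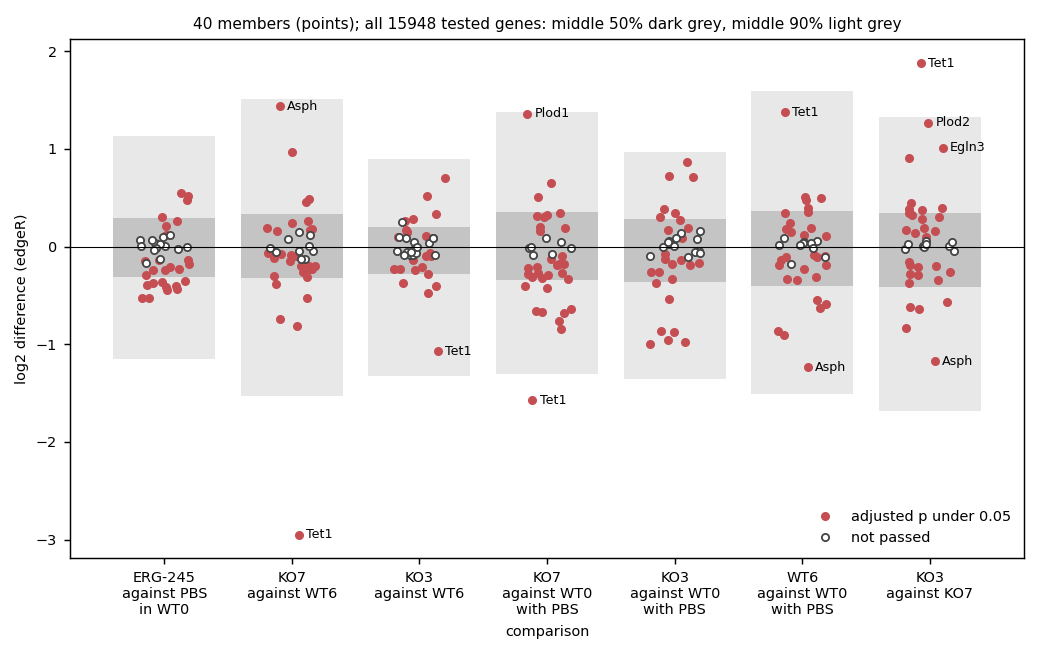
Each point is the log2 difference of 1 member in 1 of 7 comparisons (edgeR), filled where the adjusted p is under 0.05. Dark grey spans the middle 50% and light grey the middle 90% of the 15948 tested genes, and members that differ 2-fold are named. Tet1 in KO7 against WT6, at -2.95, lies farthest from 0.

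TET1, TET2 and TET3 oxidise 5-methylcytosine in DNA, the first step of active demethylation. Per kilobase, Tet3 was the most abundant of the 3 in every group, at 5.24 RPKM in KO7 to 9.40 in WT0 with PBS, and Tet1 was below Tet2 in every group but WT6 (1.93 and 1.87 RPKM). Tet1 (chr10:62804570-62887469, minus strand, GRCm38.p6) spanned the widest range of all 40 members. It was measured at 13.3, 12.7 and 15.2 CPM in WT0 on PBS, 14.8, 13.8 and 15.3 in WT0 on ERG-245, 36.7, 35.5 and 33.9 in WT6, 15.2, 19.0 and 16.2 in KO3 and 4.22, 4.60 and 4.94 in KO7. WT6 was the highest group and KO7 the lowest, both apart from all other libraries, while KO3 overlapped WT0 with ERG-245 and its lowest library lay next to the highest of WT0 with PBS. Tet1 was lower in KO7 than in WT6 (log2 -2.95, SE 0.09, edgeR adjusted p = 2.49e-44) and than in WT0 with PBS (log2 -1.57, SE 0.11, edgeR adjusted p = 1.8e-22). In KO3 it was below WT6 (log2 -1.07, SE 0.07, edgeR adjusted p = 5.86e-25) but slightly above WT0 with PBS (log2 0.30, SE 0.08, edgeR adjusted p = 0.000492). The 2 wild-type leukemias differed by more than KO3 did from either of them (log2 1.38 in WT6 against WT0, SE 0.07, edgeR adjusted p = 1.81e-30). The genotype thus did not order the groups for Tet1. Between WT0 with ERG-245 and WT0 with PBS, Tet1 did not pass (log2 0.10, SE 0.08, edgeR adjusted p = 0.276).

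Tet2 (chr3:133463677-133545136, minus strand) was measured at 16.8, 17.0 and 18.5 CPM in WT0 on PBS, 15.4, 12.6 and 14.6 in WT0 on ERG-245, 17.9, 18.3 and 17.7 in WT6, 19.0, 18.2 and 20.2 in KO3 and 9.10, 12.2 and 9.55 in KO7. KO7 lay below all other libraries, and KO3 overlapped the wild-type PBS libraries. Its log2 difference from WT6 was -0.81 in KO7 (SE 0.08, edgeR adjusted p = 4.38e-14). In KO3 it was 0.09 (SE 0.07, edgeR adjusted p = 0.287). Tet2 was lower with ERG-245 (log2 -0.29, SE 0.08, edgeR adjusted p = 0.00122). Tet3 (chr6:83362373-83457208, minus strand) was measured at 125, 118 and 120 CPM in WT0 on PBS, 101, 101 and 108 in WT0 on ERG-245, 98.3, 100 and 93.5 in WT6, 83.4, 84.9 and 81.5 in KO3 and 67.7, 67.5 and 67.0 in KO7. All 6 knock-out libraries lay below all 9 wild-type libraries, and WT0 with PBS was the highest group. Tet3 was lower in KO7 than in WT6 (log2 -0.53, SE 0.04, edgeR adjusted p = 1.69e-22). It was also lower in KO3 (log2 -0.23, SE 0.03, edgeR adjusted p = 1.98e-08). With ERG-245 it was lower than with PBS (log2 -0.23, SE 0.03, edgeR adjusted p = 1.23e-08), and WT6 was itself below WT0 with PBS (log2 -0.31). The 3 TET genes together came, as mean ± SD (n = 3), to 152 ± 4.17 CPM in WT0 on PBS, 132 ± 5.13 in WT0 on ERG-245, 151 ± 4.87 in WT6, 119 ± 2.51 in KO3 and 82.3 ± 1.75 in KO7. In KO7 all 3 TET genes passed as lower against WT6 (36.7% of all tested genes) and against WT0 with PBS (34.9%). In KO3 against KO7 all 3 passed as higher (36.1% of all tested genes).

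The 5 demethylases of H3K36 and H3K4 hold Kdm2a and Kdm2b, which bind CpG islands and remove methyl groups from H3K36, and Kdm5a, Kdm5b and Kdm5c, which remove them from H3K4. With ERG-245, 3 of the 5 were lower (Kdm2a, Kdm2b and Kdm5c), beside 32.8% of all tested genes, and Kdm5a and Kdm5b did not pass. Kdm2b went from 74.7 ± 3.19 to 54.9 ± 1.59 CPM (log2 -0.44, SE 0.04, edgeR adjusted p = 2.5e-15). Kdm2a went from 174 ± 4.66 to 137 ± 3.02 CPM (log2 -0.35). Kdm2a was also lower in both knock-outs than in both wild-type leukemias, at 154 ± 2.64 CPM in KO7 and 138 ± 2.33 in KO3 against 162 ± 0.598 in WT6. Against WT6 the step was small in KO7 (log2 -0.07, edgeR adjusted p = 0.021) and did not pass in DESeq2, without WT6 replicate 1 or without KO7 replicate 3. Kdm5a, 138 to 149 CPM in WT0 with PBS, WT6 and KO3, was lower in KO7 at 114 ± 4.11 CPM (log2 -0.38 against WT6, SE 0.03, edgeR adjusted p = 4.92e-19). Kdm5b, a low member at 10.4 to 10.7 CPM in both WT0 groups and KO3, was higher in WT6 (14.8 ± 0.398) and KO7 (16.4 ± 0.999), so that WT6 and KO7 stood together and apart from KO3.

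The 9 demethylases of H3K9 remove methyl groups from H3K9, Kdm4a to Kdm4c from H3K36 too. Group means of Kdm3a stayed between 103 and 111 CPM, and those of Jmjd1c between 105 and 126. Kdm4a was highest in KO7 (132 ± 6.47 CPM) and lowest in KO3 (108 ± 0.443). Kdm4c was highest in WT6 (47.0 ± 0.993 CPM) and Phf2 in WT0 with PBS (179 ± 2.66). With ERG-245, 4 of the 9 were lower (Kdm3b, Jmjd1c, Phf2 and Phf8) and 1 was higher, Kdm7a, beside 32.8% and 33.0% of all tested genes. Kdm7a, which acts on H3K9 and H3K27 (chr6:39136620-39206773, minus strand), varied most in this class. It was measured at 112, 104 and 107 CPM in WT0 on PBS, 129, 123 and 123 in WT0 on ERG-245, 71.3, 74.2 and 69.8 in WT6, 52.6, 59.0 and 54.6 in KO3 and 93.4, 100 and 102 in KO7. KO3 was lowest, WT6 next, and these libraries did not overlap with KO7 or the WT0 groups. The knock-outs moved in opposite directions from WT6, with KO7 higher (log2 0.46, SE 0.04, edgeR adjusted p = 2.06e-18) and KO3 lower (log2 -0.37, SE 0.04, edgeR adjusted p = 4.47e-13). They differed from each other by -0.83 on the log2 scale in KO3 against KO7 (SE 0.04, edgeR adjusted p = 6.35e-31).

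KDM6A (UTX) and KDM6B (JMJD3) remove methyl groups from H3K27 and so oppose the Polycomb mark. Kdm6b was lower with ERG-245, 70.7 ± 1.87 against 94.1 ± 2.83 CPM (log2 -0.42, SE 0.04, edgeR adjusted p = 9.61e-16), and higher in KO7, at 117 ± 6.43, than in WT6 (105 ± 5.03) or KO3 (90.3 ± 2.28). Kdm6a, Kdm5c and Phf8 lie on the X chromosome. Kdm6a and Kdm5c are known to be transcribed in part from the inactive X and have the Y-linked paralogs Uty and Kdm5d. Kdm5c (chrX:152233198-152279102, plus strand) was measured at 247, 243 and 240 CPM in WT0 on PBS, 166, 174 and 166 in WT0 on ERG-245, 133, 133 and 137 in WT6, 133, 133 and 134 in KO3 and 149, 154 and 152 in KO7. WT0 with PBS was apart from all others and WT6 and KO3 overlapped. Kdm6a (chrX:18160862-18279936, plus strand) was measured at 137, 131 and 140 CPM in WT0 on PBS, 148, 147 and 147 in WT0 on ERG-245, 86.5, 88.3 and 88.7 in WT6, 76.3, 74.9 and 71.2 in KO3 and 85.3, 85.6 and 84.9 in KO7. Both WT0 groups were above the other 9 libraries.

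The Y-linked genes separated the groups in the same way. Kdm5d had 0 counts in all libraries of WT0 with PBS, a level below 0.0476 CPM for the group as a whole (the limit that 3 counts allow, counting error only). It had 2 to 6 counts per library with ERG-245, and stood at 54.3 ± 1.73 CPM in WT6, 41.6 ± 1.13 in KO7 and 53.1 ± 1.21 in KO3. Uty, at 0 counts in WT0 with PBS and 0 to 5 with ERG-245, stood at 32.4 ± 2.78, 30.2 ± 2.14 and 33.8 ± 2.99 CPM in the same 3 groups. Xist, the RNA of the inactive X, ran the other way, at 108 CPM in KO7, 212 in KO3 and 322.5 in WT6 against 2991 and 4373 in WT0 with inhibitor and vehicle. For Kdm6a and Kdm5c, WT0 and the other leukemias thus differ in sex-linked transcripts as well as in clone, and these cannot be told apart. Reads of paralogs may be split by the authors' counting. Summed with its Y-linked paralog, Kdm5c came to 243 ± 3.50 CPM in WT0 on PBS, 169 ± 4.59 in WT0 on ERG-245, 188 ± 1.20 in WT6, 187 ± 1.62 in KO3 and 193 ± 2.50 in KO7. The sum for Kdm6a and Uty was 136 ± 4.35, 147 ± 0.592, 120 ± 1.94, 108 ± 3.05 and 115 ± 1.98 CPM in the same order of groups. The means of the 3 leukemias with Y-linked reads stood closer to WT0 with PBS in these sums than in the X-linked genes alone, and remained below it. Within WT0, where no library had more than 6 counts of Kdm5d, ERG-245 libraries were lower for Kdm5c (log2 -0.53, SE 0.03, edgeR adjusted p = 2.54e-29) and Phf8 (log2 -0.36, SE 0.04, edgeR adjusted p = 3e-11) and higher for Kdm6a (log2 0.11, SE 0.03, edgeR adjusted p = 0.000767). Sex-linked transcripts differed within WT0 as well. Xist was lower with ERG-245 (log2 -0.55), and the 4 Y-linked genes read passed as higher (33.0% of all tested genes), from 0 counts with PBS. Their part in these differences was not tested. Phf8, an H3K9 and H4K20 demethylase (chrX:151520641-151633859, plus strand), was measured at 59.8, 60.8 and 66.9 CPM in WT0 on PBS, 48.8, 48.2 and 48.8 in WT0 on ERG-245, 59.9, 58.6 and 56.4 in WT6, 46.7, 48.0 and 49.9 in KO3 and 59.2, 58.6 and 58.5 in KO7. It was low in the inhibitor group and in KO3, which overlapped, and did not follow the Y-linked genes.

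**Figure D3:**
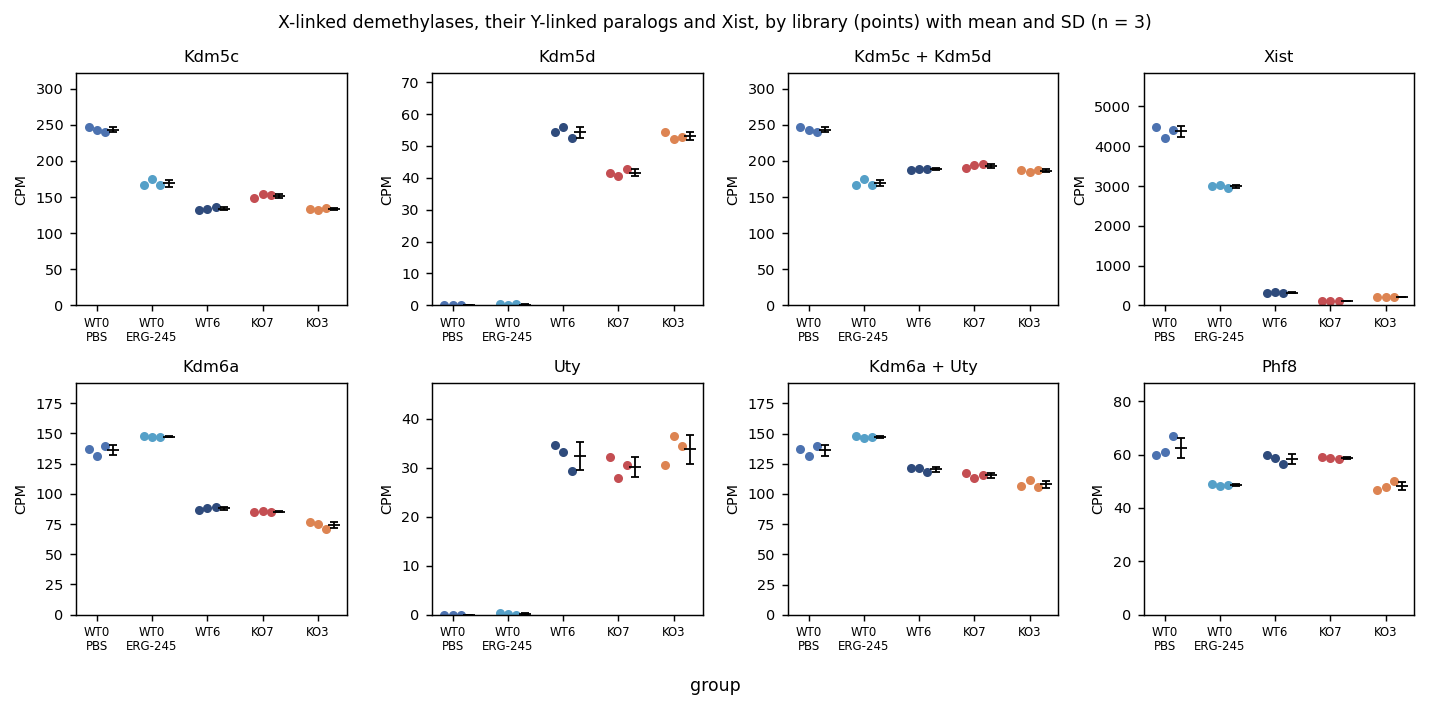
Each panel gives CPM per library (points, 3 per group) with mean and SD (n = 3) for the X-linked Kdm5c, Kdm6a and Phf8, the Y-linked Kdm5d and Uty, the sums of the paralog pairs, and Xist. Kdm5d and Uty are at or near 0 in both WT0 groups, where Kdm6a and Xist are highest.

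The 4 other JmjC hydroxylases act on proteins. Jmjd6 hydroxylates lysines of splicing factors, Riox1 and Riox2 hydroxylate histidines of ribosomal proteins, and Kdm8 (JMJD5) is a JmjC oxygenase of proteins. Jmjd6 (chr11:116837432-116843767, minus strand) was measured at 48.5, 48.2 and 47.8 CPM in WT0 on PBS, 38.4, 36.4 and 37.0 in WT0 on ERG-245, 49.8, 50.5 and 53.2 in WT6, 49.3, 48.2 and 46.5 in KO3 and 49.9, 51.6 and 47.4 in KO7. The inhibitor group lay below all other 12 libraries, which overlapped one another. Jmjd6 passed in ERG-245 against PBS (log2 -0.37, SE 0.05, edgeR adjusted p = 1.39e-10) and in none of the other 6 comparisons, where the smallest edgeR adjusted p was 0.0597. Riox1 was highest in KO3 at 34.1 ± 1.08 CPM and lowest with ERG-245 at 25.7 ± 1.17. Riox2 was lowest in KO7, at 21.8 ± 1.16 CPM, and highest in KO3, at 28.3 ± 1.51. Kdm8 had group means of 14.0 to 15.9 CPM.

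EGLN1, EGLN2 and EGLN3 (PHD2, PHD1 and PHD3) hydroxylate prolines of HIF alpha subunits and mark them for destruction through VHL, and HIF1AN (FIH) hydroxylates an asparagine that silences their activation domain. Egln1 and Egln3 are themselves known targets of HIF. Egln3 (chr12:54178981-54203874, minus strand) was measured at 69.7, 73.8 and 75.2 CPM in WT0 on PBS, 57.6, 56.4 and 52.8 in WT0 on ERG-245, 73.9, 69.5 and 76.7 in WT6, 118, 120 and 121 in KO3 and 59.3, 58.9 and 59.6 in KO7. KO3 was far above the others, WT6 and WT0 with PBS overlapped, and KO7 and the inhibitor group were lowest. Against WT6, Egln3 was higher in KO3 (log2 0.70, SE 0.04, edgeR adjusted p = 4.53e-30) and lower in KO7 (log2 -0.31, SE 0.04, edgeR adjusted p = 1.67e-10). The knock-outs differed by log2 1.01 in KO3 against KO7 (SE 0.04, edgeR adjusted p = 9.72e-38). With ERG-245 it was lower (log2 -0.39, SE 0.04, edgeR adjusted p = 1.33e-13). Egln2 was higher with ERG-245, at 56.5 ± 1.76 CPM against 45.8 ± 1.24 with PBS (log2 0.30, SE 0.05, edgeR adjusted p = 3.74e-08). Its level with ERG-245 was near that of WT6, KO7 and KO3 (57.9 to 58.7 CPM). Egln1 was 49.9 ± 0.979 CPM in WT0 with PBS and 52.3 ± 2.63 with ERG-245, below WT6 (69.4 ± 1.37), KO7 (62.6 ± 2.02) and KO3 (65.1 ± 0.827). Hif1an had group means of 63.7 to 73.0 CPM, with WT6 highest. The HIF hydroxylases thus did not move as 1 group, since Egln3 alone was higher in KO3 than in both wild-type leukemias and lower with the inhibitor.

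A list of 20 HIF subunits and targets was set beside them. In KO3 against KO7, 10 of the 20 were higher and 5 lower (36.1% and 34.6% of all tested genes), among them Ndrg1 (log2 1.46), the glycolytic genes Pgk1 (0.52) and Ldha (0.45), and the MYC antagonist Mxi1 (-0.78). In KO3 against WT6, 10 were higher and 4 lower (27.7% and 32.0% of all genes), led by Ndrg1 (log2 2.44), Aldoa (0.40), Pdk1 (0.44) and Ldha (0.26). In KO7 against WT6, 9 were higher and 8 lower (32.2% and 36.7% of all genes), with Ndrg1 (log2 0.98) and Mxi1 (1.01) higher and Hif1a (-0.68) lower. Egln3 and Ndrg1 did not rank the groups alike. Ndrg1, a stress-responsive gene, was at a like level in WT0 with PBS (214 ± 3.11 CPM) and in KO3 (210 ± 1.78), against 117 ± 4.00 with ERG-245, 38.8 ± 1.79 in WT6 and 76.3 ± 0.418 in KO7. With ERG-245 9 of the list were higher and 5 lower (33.0% and 32.8% of all genes), with Ndrg1 (log2 -0.88) and Epas1 (-0.71) lower and Pdk1 (0.44) and Higd1a (0.42) higher. The list's median log2 difference was 0.17 in KO3 against WT6, -0.05 in KO7 against WT6 and 0.05 with ERG-245, beside -0.02, -0.03 and 0.00 for all tested genes.

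Of the 6 Alkbh and Fto demethylases, Alkbh5 and Fto remove N6-methyladenosine from RNA, Alkbh2 and Alkbh3 repair alkylated DNA, Alkbh1 acts on transfer RNA among other substrates, and Alkbh4 is known for demethylating actin. Alkbh1 (chr12:87428077-87443839, minus strand) was measured at 55.6, 52.2 and 51.9 CPM in WT0 on PBS, 42.2, 46.8 and 46.6 in WT0 on ERG-245, 44.7, 41.1 and 40.5 in WT6, 47.1, 47.4 and 45.5 in KO3 and 33.4, 35.4 and 33.8 in KO7. WT0 with PBS was highest and KO7 lowest without overlap, and the other 3 groups lay between them. Against WT6 it was lower in KO7 (log2 -0.30, SE 0.05, edgeR adjusted p = 1.83e-07), whereas it was higher in KO3 (log2 0.14, SE 0.05, edgeR adjusted p = 0.00538). Fto had the same order in these 3 groups, at 68.0 ± 0.576 CPM in WT6, 58.1 ± 0.859 in KO7 and 73.5 ± 1.82 in KO3. Alkbh5 was lowest with ERG-245, at 87.2, 89.9 and 90.7 CPM, below the other 12 libraries, and went from 118 ± 1.68 to 89.3 ± 1.85 CPM against PBS (log2 -0.40, SE 0.03, edgeR adjusted p = 1.2e-18). In the other groups it was 110 to 118 CPM. Alkbh4 was highest in KO7 at 22.1 ± 1.80 CPM, against 15.6 to 18.5 in the other groups, Alkbh3 lay at 25.8 to 32.8 CPM and Alkbh2, the lowest of the class, at 5.00 to 6.54 CPM. In KO7 against WT0 with PBS, 5 of the 6 were lower and Alkbh4 was higher (34.9% and 34.5% of all tested genes). The call of Alkbh2 among the lower ones was lost in DESeq2 and without KO7 replicate 2, WT0 PBS replicate 2 or WT0 PBS replicate 3.

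The 7 collagen and other protein hydroxylases held the widest spans after Tet1, in Asph, P4ha2, Plod1 and Plod2. P4ha1 and P4ha2 are catalytic subunits of collagen prolyl 4-hydroxylase, Plod1, Plod2 and Plod3 hydroxylate lysines of collagen, Ogfod1 hydroxylates a ribosomal protein, and Asph hydroxylates aspartate and asparagine in EGF-like domains, such as those of Notch receptors. All 7 passed with ERG-245, 4 higher (Asph, Plod1, Plod2 and P4ha2) and 3 lower (Plod3, Ogfod1 and P4ha1). Of all tested genes 65.8% passed there, 33.0% higher and 32.8% lower. Of these 7, Ogfod1 had the lowest log2 difference with ERG-245, at 25.2 ± 1.94 CPM against 36.5 ± 1.57 with PBS (log2 -0.53, SE 0.06, edgeR adjusted p = 3.48e-13). Plod3 stood at 22.2 ± 0.766 CPM with ERG-245 against 30.1 ± 0.907 with PBS (log2 -0.44). Plod1 (chr4:147909753-147936776, minus strand) was measured at 14.6, 15.2 and 12.6 CPM in WT0 on PBS, 20.5, 20.7 and 21.2 in WT0 on ERG-245, 18.6, 19.1 and 18.6 in WT6, 25.0, 23.2 and 22.5 in KO3 and 37.0, 37.3 and 35.5 in KO7. Both knock-outs were above all wild-type libraries, with KO7 highest. Plod1 was higher in KO7 than in WT6 (log2 0.97, SE 0.06, edgeR adjusted p = 7.86e-25), in KO3 than in WT6 (log2 0.33, SE 0.06, edgeR adjusted p = 4.63e-06) and with ERG-245 than with PBS (log2 0.55, SE 0.07, edgeR adjusted p = 2.9e-10). WT6 was also above WT0 with PBS (log2 0.40, SE 0.07, edgeR adjusted p = 5.24e-07).

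Plod2 (chr9:92539636-92608428, plus strand) was measured at 22.7, 23.2 and 23.9 CPM in WT0 on PBS, 28.4, 29.6 and 25.9 in WT0 on ERG-245, 31.2, 29.3 and 27.6 in WT6, 41.9, 42.3 and 42.7 in KO3 and 17.2, 18.0 and 17.6 in KO7. KO3 was highest and KO7 lowest, each apart from the wild-type libraries. Against WT6 it was higher in KO3 (log2 0.52, SE 0.05, edgeR adjusted p = 1.51e-14) and lower in KO7 (log2 -0.74, SE 0.06, edgeR adjusted p = 5.24e-18), so that Plod2, like Egln3, was on opposite sides of WT6 in the 2 knock-outs. Asph (chr4:9449085-9669344, minus strand) was measured at 28.1, 28.0 and 27.1 CPM in WT0 on PBS, 36.2, 40.2 and 39.6 in WT0 on ERG-245, 12.2, 11.1 and 12.0 in WT6, 13.9, 15.1 and 13.4 in KO3 and 32.7, 33.2 and 29.9 in KO7. WT6 and KO3 were low, and KO7 and both WT0 groups high, without overlap between these sets. Asph was higher in KO7 than in WT6 (log2 1.44, SE 0.07, edgeR adjusted p = 3.17e-32) and in WT6 lower than in WT0 with PBS (log2 -1.24, SE 0.07, edgeR adjusted p = 2.4e-28). The same locus also makes the shorter proteins junctin and junctate, which lack the catalytic domain, and counts per gene do not separate them. P4ha2 was low throughout, at 41 to 131 counts per library, with 4.20 ± 1.10 CPM in WT0 on PBS, 6.07 ± 0.756 in WT0 on ERG-245, 2.28 ± 0.333 in WT6, 2.13 ± 0.276 in KO3 and 3.17 ± 0.384 in KO7. P4ha1 had group means of 22.7 to 28.6 CPM.

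**Figure D4:**
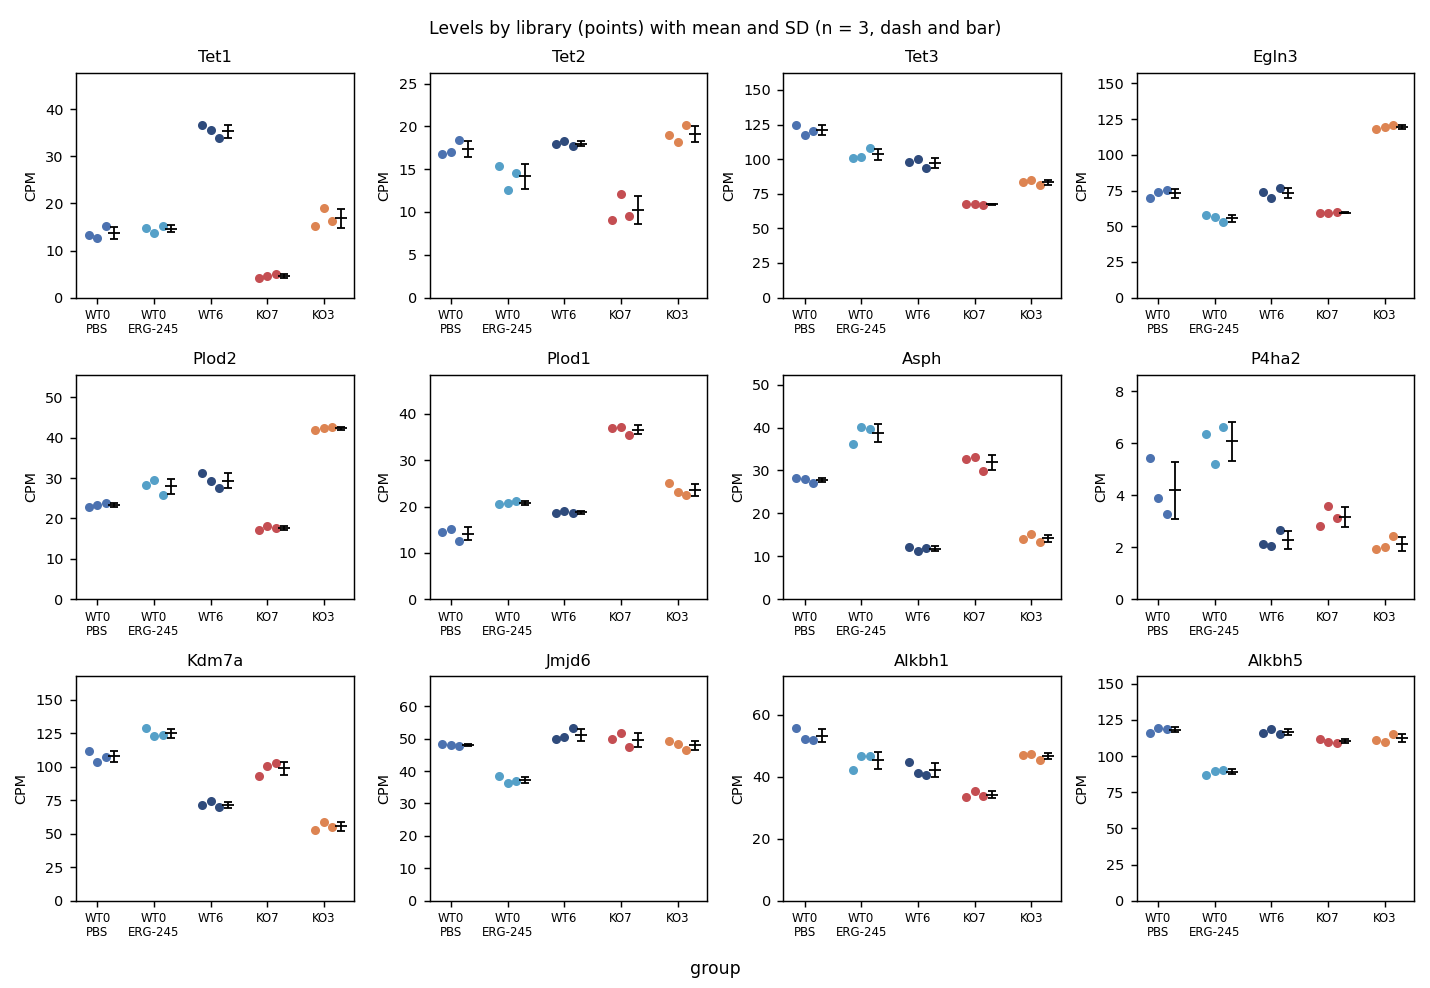
CPM per library (points, 3 per group) with mean and SD (n = 3) for 12 members, on axes that start at 0. Tet1 is highest in WT6 and lowest in KO7, Egln3 and Plod2 are highest in KO3, Plod1 is highest in KO7, Asph and Kdm7a are low in WT6 and KO3, and Jmjd6 and Alkbh5 are lowest with ERG-245.

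Several of these patterns lay beside markers of other spleen cells. The 11 erythroid markers found summed to 37950 to 40170 CPM in WT0 on PBS, 45660 to 49660 in WT0 on ERG-245, 10850 to 12530 in WT6, 10430 to 10860 in KO3 and 54180 to 57630 in KO7, with no marker at 0 in any group. WT6 and KO3, the groups low in erythroid markers, were the groups low in Asph, Kdm7a and P4ha2. Among the other groups the order differed. KO7, highest in these markers, had lower means than WT0 with ERG-245 for Asph (31.9 and 38.7 CPM), Kdm7a (98.8 and 125) and P4ha2 (3.17 and 6.07). For Kdm7a and P4ha2 its means were also below those of WT0 with PBS (108 and 4.20 CPM). The 12 macrophage markers, none at 0, summed to 1118 to 1142 CPM in WT0 on PBS, 1513 to 1527 in WT0 on ERG-245, 1866 to 1963 in WT6, 1426 to 1436 in KO3 and 3378 to 3403 in KO7. KO7 was highest both for them and for Plod1, though KO3 lay below WT6 for the markers and above it for Plod1. The 10 markers of stroma and endothelium, cells that make collagen, summed to 604 to 716 CPM over all libraries. This sum hides differences of single markers in both directions. With ERG-245 against PBS 8 of the 10 passed as higher and 2 as lower (33.0% and 32.8% of all tested genes). In KO7 against WT6 it was 6 and 4 (32.2% and 36.7%), with log2 differences of -1.80 to 1.51. In KO3 against WT6 it was 1 and 8 (27.7% and 32.0%). Other marker lists also moved with the groups compared. In WT0 the 9 neutrophil markers were at a summed 68.5 to 70.7 CPM with PBS and 3.04 to 4.43 with ERG-245 (Ly6g at 0). The 8 platelet markers summed to 141 to 152 CPM with PBS and 21.2 to 26.0 with ERG-245, and the 12 T cell markers to 4117 to 4163 and 3316 to 3354. The 13 B and plasma cell markers summed to 1439 to 1455 CPM with PBS and 3575 to 3650 with ERG-245, 8554 to 8906 in WT6, 4139 to 4206 in KO7 and 2991 to 3040 in KO3. Their sum does not give the direction of most of them. With ERG-245 against PBS 4 of the 13 passed as higher and 9 as lower (33.0% and 32.8% of all tested genes). In KO7 against WT0 with PBS it was 4 and 9 too (34.5% and 34.9%). Neutrophil markers were 316 to 337 in WT6, 127 to 134 in KO7 and 174 to 178 in KO3. Platelet markers were 147 to 151 in WT6, 105 to 107 in KO7 and 129 to 135 in KO3, and T cell markers 5569 to 5710, 5377 to 5479 and 5172 to 5245. The 8 dendritic and NK cell markers summed to 28.6 to 29.9 CPM in WT0 on PBS (Ncr1 at 0), 18.1 to 18.9 on ERG-245, 64.0 to 66.9 in WT6, 31.5 to 36.7 in KO3 and 35.7 to 39.6 in KO7 (Siglech at 0). The part of other cells in the members' differences, those with ERG-245 and those from WT6 included, was not tested.

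**Figure D5:**
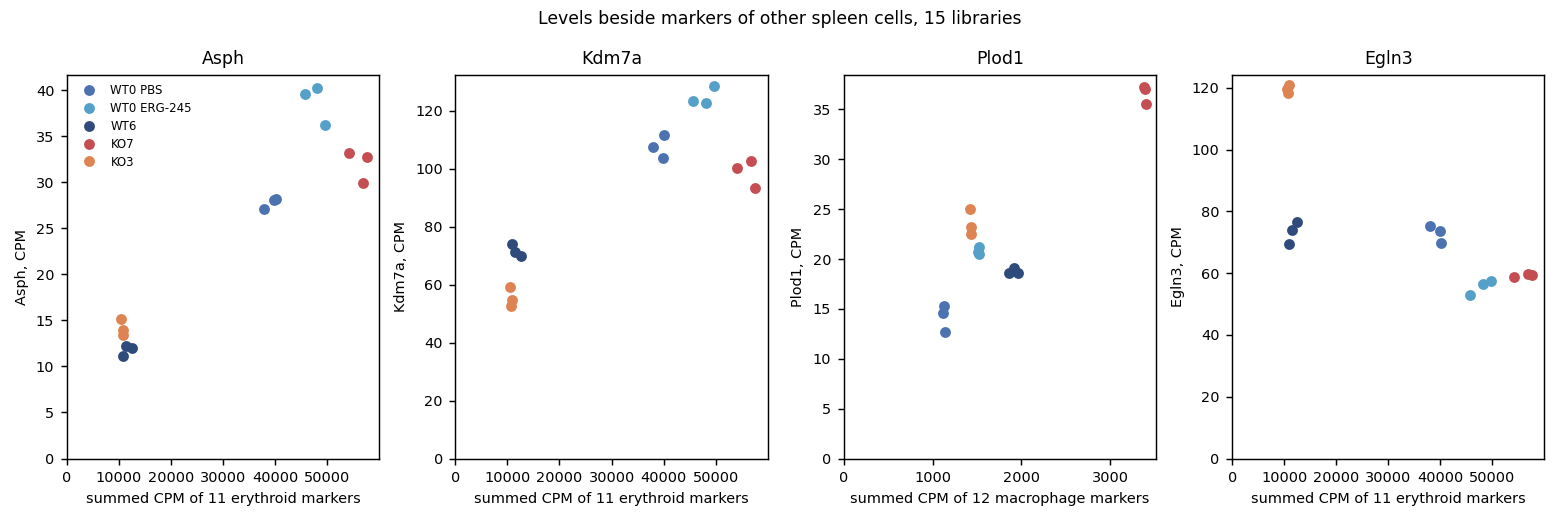
Each point is 1 library, coloured by group, with the summed CPM of 11 erythroid markers (Asph, Kdm7a and Egln3) or 12 macrophage markers (Plod1) on the x axis and the gene's CPM on the y axis. WT6 and KO3 lie at the left for erythroid markers, where Asph and Kdm7a are low, while Egln3 differs between these groups at like marker levels. KO7 lies farthest to the right, but below WT0 with ERG-245 for Asph and Kdm7a.

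To see which members separated the genotypes whatever the leukemia, the 6 knock-out libraries were set against the 6 wild-type libraries with PBS. The ranges did not overlap for 6 of 40 members, beside 6.68% of all tested genes. Higher in every knock-out library were 2 members (2.97% of all genes), Plod1 at 22.5 to 37.3 against 12.6 to 19.1 CPM and Kdm4b at 49.0 to 52.6 against 43.2 to 48.4 CPM. Lower were 4 members (3.71% of all genes). These were Tet3 at 67.0 to 84.9 against 93.5 to 125 CPM, Kdm2a at 135 to 157 against 161 to 178, Kdm6a at 71.2 to 85.6 against 86.5 to 140, and the H3K9 demethylase Kdm3b at 106 to 110 against 112 to 131. For all 6 members the gap between the nearest libraries was smaller than the difference between the means of the wild-type leukemias. Against WT6, Kdm4b did not pass in KO7 (log2 0.081, edgeR adjusted p = 0.104) or in KO3 (log2 0.085, edgeR adjusted p = 0.0875). Nor did Kdm6a pass in KO7 against WT6 (log2 -0.042, edgeR adjusted p = 0.273). Kdm6a is the X-linked gene whose WT0 level lay beside the Y-linked genes above. When counts were summed per leukemia, 2 knock-out against 2 wild-type leukemias, 0 of 40 members passed in edgeR and 0 in DESeq2. Of all 17226 genes tested so, 0 (0.0%) passed in edgeR and 43 in DESeq2, and 226 genes (1.31%) had an unadjusted edgeR p under 0.05. Plod1 was the only member among them (log2 0.88, SE 0.33, edgeR unadjusted p = 0.0448, adjusted p = 1). Biological variation, as edgeR's coefficient, came to 2.18% within groups and to 41.9% among the leukemias of 1 genotype.

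Promoter sequences were read for the members that are given per library, to show the letters ahead of their transcription starts. The RefSeq promoter table (GRCm38.p6) had an entry for 33 of the 40 members, with 43 starts. The windows below are the 250 bases before the annotated start, 5′ to 3′, and capitals mark each match to the core of the HIF response element, ACGTG or GCGTG on either strand. They are shown for Egln3 (chr12:54203875-54204124, minus strand), which was raised in KO3 and is a known HIF target, Plod1 (chr4:147936777-147937026, minus strand), highest in KO7, Kdm7a (chr6:39206774-39207023, minus strand) and Alkbh1 (chr12:87443840-87444089, minus strand), because their windows lie wholly outside the annotated gene.
Egln3: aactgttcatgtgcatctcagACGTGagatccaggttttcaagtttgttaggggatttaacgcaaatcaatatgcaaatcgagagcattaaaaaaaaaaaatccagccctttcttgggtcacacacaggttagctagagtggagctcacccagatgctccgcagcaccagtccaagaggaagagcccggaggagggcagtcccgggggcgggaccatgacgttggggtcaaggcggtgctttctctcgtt
Plod1: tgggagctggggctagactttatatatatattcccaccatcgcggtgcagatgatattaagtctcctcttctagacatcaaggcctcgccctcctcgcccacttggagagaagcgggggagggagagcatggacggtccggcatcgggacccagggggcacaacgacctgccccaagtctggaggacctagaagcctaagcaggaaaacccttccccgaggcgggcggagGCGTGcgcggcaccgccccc
Kdm7a: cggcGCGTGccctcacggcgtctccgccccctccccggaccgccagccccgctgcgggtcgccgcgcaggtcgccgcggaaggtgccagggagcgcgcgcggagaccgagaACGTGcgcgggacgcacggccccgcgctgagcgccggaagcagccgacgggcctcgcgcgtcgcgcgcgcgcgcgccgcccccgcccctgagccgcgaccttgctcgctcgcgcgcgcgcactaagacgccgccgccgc
Alkbh1: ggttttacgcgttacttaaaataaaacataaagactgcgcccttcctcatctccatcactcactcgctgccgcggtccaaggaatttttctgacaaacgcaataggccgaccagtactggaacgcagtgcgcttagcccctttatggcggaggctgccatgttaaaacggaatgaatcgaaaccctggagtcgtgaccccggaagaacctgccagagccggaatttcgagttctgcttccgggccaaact
Egln3 and Plod1 each hold 1 match, Kdm7a 2 and Alkbh1 0. Such a match was found ahead of 26 of the 43 member starts (60.5%) and 12679 of 32851 starts of all genes (38.6%), and member windows also hold more CpG dinucleotides, with a median of 17 against 6 per window, and both forms of the motif contain CG. The core bound by the NOTCH partner CSL, GTGGGAA on either strand, stood ahead of 2 member starts (4.65%) and of 5.42% of all starts. A match is a description of letters and not a binding site.

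The genes around these enzymes were read from 3 further lists, whose counts stand beside the same shares of all tested genes as the members' counts above. Of 23 other 2-oxoglutarate dioxygenases 17 passed the filter on low counts, and with ERG-245 5 were higher and 5 lower, in KO7 against WT6 4 and 6, and in KO3 against WT6 4 and 6. The 4 with the smallest p under ERG-245 were Phyhd1 (log2 0.96), the collagen prolyl 3-hydroxylase P3h3 (-0.61), the JmjC protein Hspbap1 (-0.41) and the transfer RNA enzyme Alkbh8 (0.22). In KO7 against WT6 they were Hspbap1 (log2 0.76), Jmjd4 (-0.45), the membrane-bound prolyl hydroxylase P4htm (-0.73) and P3h2 (0.52), and in KO3 against WT6 P3h1 (0.72), P3h2 (-0.76), P3h3 (0.54) and Hr (-1.56). Of 27 genes that supply or remove 2-oxoglutarate, 14 were higher and 8 lower with ERG-245, among them the succinate dehydrogenase subunits Sdhb (log2 0.45) and Sdhd (0.41), the isocitrate dehydrogenase subunit Idh3a (0.41) and the mitochondrial aminotransferase Bcat2 (0.50), all higher. In KO7 against WT6, 8 were higher and 10 lower, with Bcat1 (log2 -4.07), the serine synthesis gene Psat1 (-1.14) and the 2-oxoglutarate dehydrogenase Ogdh (0.31) among those with the smallest p. In KO3 against WT6, 13 were higher and 5 lower, with Bcat1 (log2 -2.34) lower and Idh2 (0.96) and Idh3g (0.47) higher.

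The writers of the methyl marks that these enzymes remove were taken as the third list. With ERG-245, 2 of 24 writers were higher and 20 lower (median log2 -0.23, beside 0.00 for all tested genes), led by the H3K4 methyltransferases Kmt2a (log2 -0.90), Kmt2d (-0.59) and Setd1b (-0.55) and the maintenance DNA methyltransferase Dnmt1 (-0.29). The median log2 difference over all 40 members was -0.13 in the same comparison. In KO7 against WT6, 6 writers were higher and 13 lower, and Dnmt3a, a de novo DNA methyltransferase, was lower (log2 -0.89) as Tet1 and Tet2 were. In KO3 against WT6, 12 were higher and 7 lower, with Dnmt1 at log2 0.22 and Kmt2c at -0.49. Against WT0 with PBS the direction in KO3 was the other, with 3 writers higher and 16 lower and Dnmt1 at log2 -0.41. In KO7 against WT0 with PBS, 1 writer was higher and 20 were lower, with Dnmt1 at log2 -0.70. WT6 against WT0 with PBS, a comparison without a difference in Bcat1 genotype or inhibitor, gave 4 writers higher and 15 lower, with Dnmt1 at log2 -0.62 and Kmt2a at -0.53.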

How the data were processed

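RNA of 15 libraries was counted per gene by the authors. The deposited table holds raw fragment counts, made per the file headers with featureCounts 2.0.1 on read pairs of which both ends mapped, without chimeric pairs, with a minimum overlap of 25 bases, strand setting 2 and the RefSeq exons of GRCm38.p6. The labels name the TruSeq stranded mRNA kit, and Trim Galore, STAR, Subread, DESeq2 and mm10 appear in the submitters' processing notes. The deposited gene length in bases (its other unit) served for RPKM. Of 39836 lines, 9 broken lines, of the 3 genes Huwe1, Mycbp2 and Neb, were not used. Symbols were found for 39743 of 39827 gene IDs, and the coordinates of all 40 members equal those of the RefSeq table.

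Counts were fitted in R 4.3.3 with edgeR 4.0.16 (filterByExpr, TMM, quasi-likelihood test, 1 coefficient per group, 10 residual degrees of freedom) and, as an alternative, DESeq2 1.42.0. Adjustment was over all tested genes. A second fit compared the genotypes on sums of counts per leukemia (17226 genes, 2 residual degrees of freedom). Alternatives were other scalings, no filter on low counts, a replicate block, a fit of only the 2 groups compared and leaving out each library or leukemia. The test was checked on simulated data. The members and gene lists were chosen with earlier results of these data known. Members were given per library when they differed 2-fold in any comparison at a mean of at least 1 CPM, had the widest span of their role class or are X-linked, and Tet2, Tet3 and the other members named with values were chosen after their values were seen. Of each other list, up to 4 genes per comparison were named by smallest p. The values of 1 gene so chosen are not reported here.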

Additional observations from a re-analysis of the deposited data

Results flagged for a closer look

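Egln3 and Plod2 were on opposite sides of WT6 in the knock-out leukemias, and the difference between KO3 and KO7 was tested directly. It was log2 1.01 for Egln3 (edgeR adjusted p = 9.72e-38) and log2 1.27 for Plod2 (edgeR adjusted p = 2.6e-31), with all 3 KO3 libraries above all 3 KO7 libraries for both genes.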

How the results depend on the processing

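Under the alternatives run, all 182 counts of members higher or lower stayed within 1.5 times the value reported. They include the counts over leukemias, which say little of stability because 0 members passed in the main fit. Of 2388 values of the 199 member differences that had passed, 2288 stayed past the threshold in the same direction, 100 no longer passed and 0 changed direction. The other scalings moved the median log2 difference of all genes by at most 0.01. Equal replicate numbers did not pair the libraries: deviations from the group means correlated at -0.046 to 0.032 for libraries with the same number, and 0 of 30 pairs exceeded 0.1. With a replicate block, the members lower with ERG-245 numbered 18 and those higher in WT6 against WT0 12. Over leukemias, 0 of all genes passed in the edgeR test, against 43 with DESeq2 and 8 without the filter on low counts, and 0 members passed in any of these. The libraries of a group vary little, so small differences pass, while only 2 leukemias per genotype limit what can be said of genotype.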
